A study of Caenorhabditis elegans with 3 samples.

Results

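The gonadal innexins of Caenorhabditis elegans were taken as inx-8, inx-9, inx-14, inx-21 and inx-22, by matching these gene symbols to the platform annotation of the array. Of these 5 genes, 3 had a probe, inx-8 (ZK792.2), inx-9 (ZK792.3) and inx-14 (F07A5.1), with 1 probe each, and all 3 were among the 15159 genes tested. No probe was listed for inx-21 or inx-22, which were not analysed here. The study hybridised RNA of hermaphrodites in early L4, the final larval stage, to 2-colour microarrays together with a mixed reference RNA of wild-type worms. Its single group held 3 worm preparations with 1 array each, where channel 1 carried the reference and channel 2 the worms of interest. The labels give no strain, genotype or age in hours for the early L4 worms. All 3 early L4 samples carry the code TP04, which is not explained there. Each array title ends in its own string in the form of a date. Whatever that string marks cannot be told apart from the preparation. They leave the makeup of the reference unstated, and also whether the preparations were grown as separate cultures.

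Innexins are the gap junction proteins of invertebrates. Subunits assemble into a hemichannel in the membrane of each of a pair of touching cells, and the joined hemichannels let small molecules pass. In the hermaphrodite gonad, INX-8 and INX-9 form the hemichannels on the somatic side, in the distal tip cell and the sheath cells that wrap the germ line. INX-14 is the shared germline subunit and pairs with INX-21 or INX-22 on the germ cell side. These junctions are known to be needed for germ cell proliferation in the distal gonad and, in the proximal gonad of adults, to hold oocyte meiotic maturation back until the sperm signal arrives.

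Values below are log2 ratios of early L4 over reference after each array was centred on its median, so that a value below 0 means less RNA relative to the reference than for the array's typical probe. No label states which channel is the numerator. The order of the names in the descriptions makes early L4 over reference the likely reading, and under the opposite reading every sign would turn. The arrays of the 3 preparations had 19841 to 19905 probes with a value, and Pearson's r between pairs of arrays was 0.643 to 0.809 across 15128 genes. The 3 arrays share the reference, so their ratios are not independent of each other. The labels do not state whether the preparations were independent. Tests were made with limma across all genes, and a gene was called at a Benjamini-Hochberg adjusted p under 0.05. By that rule 3444 of 15159 genes, 22.7%, were called, with 10.1% of all genes lower and 12.6% higher in early L4. Below, genes that fell or rose are those called lower or higher relative to the reference, which is not a change over time. The reference enters only as the common denominator, so its own spread is not in the test, and the p-values cover array-to-array spread alone, which may be technical.

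The first comparison asked whether the gonadal innexins had more or less RNA in early L4 worms than in the reference. The germline subunit inx-14 was lower in early L4. The somatic subunits inx-8 and inx-9 had ratios below 0 on all 3 arrays but did not pass the test. Thus 1 of the 3 measured genes was called, as lower, and all 3 were below 0 on every array, as were 27.6% of the genes measured on all arrays. With 3 genes, these counts are a description only.

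The ratio of inx-14 was -1.34 in preparation 1, -1.42 in preparation 2 and -0.85 in preparation 3. Preparations 1 and 2 lay close together and preparation 3 was the least low. The mean was -1.20 ± 0.31 (SD, n = 3), a 2.3-fold lower level relative to the reference, with a 95% confidence interval of -1.71 to -0.70 from the fit (limma adjusted p = 0.00435). Of all genes tested, 4.16% had a lower mean. Within each array the gene stood at the 6.96th, 2.58th and 9.35th percentile for preparations 1, 2 and 3. The probe is annotated to both RefSeq transcripts of the gene listed there, so isoforms could not be told apart. In RNA of whole worms, the number and kinds of germ line cells and the inx-14 RNA per cell cannot be told apart either. The same holds for the mixed reference, whose makeup is unstated. Germ cell and oocyte markers, which went in different directions, are given below.

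The somatic subunit inx-8 had ratios of -0.61, -0.38 and -0.70 in preparations 1, 2 and 3. All were moderately low, with preparation 2 nearest to 0. The mean was -0.56 ± 0.16 (SD, n = 3), a 1.48-fold lower level, with an interval of -1.04 to -0.08. The unadjusted p of 0.0266 did not pass after adjustment over all genes (limma adjusted p = 0.0924).

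Its paralog inx-9 had -0.56, -0.35 and -0.94. Preparation 3 was the lowest and preparation 2 again the nearest to 0. The mean was -0.62 ± 0.30 (SD, n = 3), a 1.54-fold lower level, with an interval of -1.12 to -0.12 (unadjusted p = 0.0211, limma adjusted p = 0.0783). Both intervals reach close to 0 at one end and a 2-fold difference at the other, so these arrays do not settle whether either gene differed from the reference. Both genes had the same order of preparations, with 3 lowest and 2 highest, whereas for inx-14 preparation 2 was the lowest and 3 the highest.

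**Figure D1:**
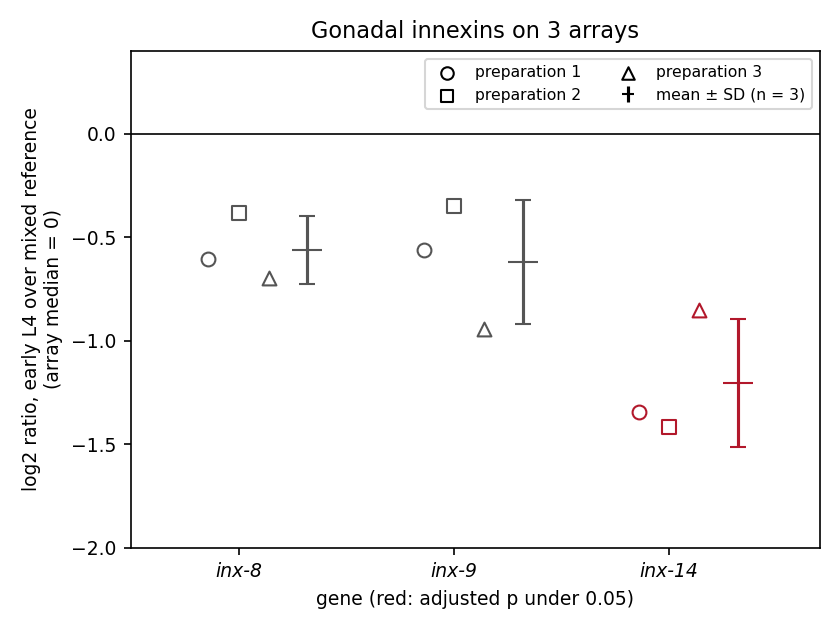
Log2 ratio of early L4 over mixed reference (vertical axis, array median at 0) of the 3 measured gonadal innexins; each symbol is 1 preparation, and the bar beside it is the mean ± SD (n = 3). All points lie below 0; inx-14, in red, has a mean of -1.20 and passed the test, while inx-8 at -0.56 and inx-9 at -0.62 did not.

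The second comparison asked how the measured members differed from each other within an array. The paralogs inx-8 and inx-9 stayed close, with inx-9 minus inx-8 at 0.04, 0.03 and -0.24 in preparations 1, 2 and 3, a mean of -0.06 ± 0.16 (SD, n = 3). The germline subunit inx-14 was below inx-8 on all 3 arrays, with differences of -0.74, -1.03 and -0.15, a mean difference of -0.64 ± 0.45 (SD, n = 3). It was below inx-9 in preparations 1 and 2, with differences of -0.78 and -1.07, but above it in preparation 3, with 0.09. The mean difference of inx-14 minus inx-9 was -0.58 ± 0.60 (SD, n = 3). A two-sided exact sign permutation test over 3 arrays cannot give a p under 0.25, and it gave 0.25 for inx-14 against inx-8, 0.5 for inx-14 against inx-9 and 1 for inx-9 against inx-8. Adjusted over these 3 pairs the exact p-values were 0.75, 0.75 and 1, so no pair was shown to differ. The differences are between ratios to the reference, not between RNA levels of the genes.

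In the gene table of assembly WBcel235, inx-8 and inx-9 are direct neighbours among protein-coding genes, and so are inx-21 and inx-22. The 4 measured genes other than innexins within 3 places of inx-8 or inx-9 were ZK792.1, ZK792.4, ZK792.5 and the Ras gene let-60, chosen by position. Their mean log2 ratios were -0.21, 0.19, 0.11 and 0.11, and none passed (limma adjusted p = 0.539 to 0.822). The adjacent atg-4.2 had no value, and the difference of inx-8 and inx-9 from the genes around them was not tested. Of 6 measured genes within 3 places of inx-14, 3 fell, 1 rose and 2 did not pass, where 10.1% of all genes were lower and 12.6% higher. Those that fell were the adjacent kbrl-1, with -1.05 ± 0.30, glb-18, a globin-class gene, with -0.90 ± 0.29, and F07A5.4, with -0.95 ± 0.27 (SD, n = 3; limma adjusted p = 0.00868, 0.0172 and 0.013). Without preparation 3 glb-18 and F07A5.4 did not pass (limma adjusted p = 0.152 and 0.0561), nor did F07A5.4 without preparation 2 (0.109). The gene on the other side of inx-14, spsp-1, rose, with 2.21 ± 0.61 (SD, n = 3; limma adjusted p = 0.000434). The other measured neighbours, gcsh-2 and scav-6, had means of -0.02 and -0.13. INX-8 and INX-9 are closely related proteins. The probe sequences were not used here, so RNA of either gene binding to the probe of the other was not tested, and the likeness of their ratios is not evidence of separate measurements.

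The third comparison placed the gonadal innexins within the innexin family, whose other members serve muscle, pharynx, nerve cells, epidermis and intestine. Among the 22 innexins measured, inx-14 had the second lowest mean, inx-9 the fifth lowest and inx-8 the sixth lowest. Their ranks from the lowest on the arrays of preparations 1, 2 and 3 were 2, 1 and 4 for inx-14. They were 6, 8 and 3 for inx-9 and 5, 6 and 5 for inx-8. Of the 19 other innexins tested, 2 fell and 1 rose, while 16 missed the threshold. Their median was -0.05, against a median of -0.01 over all genes. That is 15.8% called, against 22.7% of all genes. Without preparation 1 the count of called genes among the 19 was 5, where 26% of all genes were called. Without preparation 2 it was 1, where 16% of all genes were called.

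The innexin with the lowest ratio was inx-3 (F22F4.2), a broadly used subunit of the embryo and pharynx, with -1.77, -0.98 and -1.54 in preparations 1, 2 and 3. Its mean was -1.43 ± 0.41 (SD, n = 3; limma adjusted p = 0.00225). It lay below inx-14 in preparations 1 and 3 and above it in preparation 2, so their order was not steady. The other innexin that fell was inx-11 (W04D2.3), with -0.77, -0.88 and -0.62 and a mean of -0.76 ± 0.13 (SD, n = 3; limma adjusted p = 0.0302). It did not pass without preparation 2 (limma adjusted p = 0.205) or without preparation 3 (0.0944). All 3 of its values were less low than those of inx-14 on the same array. Only inx-17 (R12E2.4) rose, with 1.19, 1.06 and 0.51 and a mean of 0.92 ± 0.36 (SD, n = 3; limma adjusted p = 0.0179), and it did not pass without preparation 2 (0.1).

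The order of inx-7, inx-9 and inx-8 could not be told apart from the spread. The gene inx-7, a subunit of nerve cells, had a mean of -0.66 ± 0.34 (SD, n = 3), close to inx-9 at -0.62 and inx-8 at -0.56. The gaps of 0.04 and 0.06 between these means were smaller than each SD. Their differences from inx-11 were not tested. The next higher mean was that of unc-7, a neuronal subunit, at -0.48 ± 0.72 (SD, n = 3), whose values ran from -1.20 to 0.24. Of the 19 other innexins, 13 had a mean within 0.5 of 0 in either direction.

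**Figure D2:**
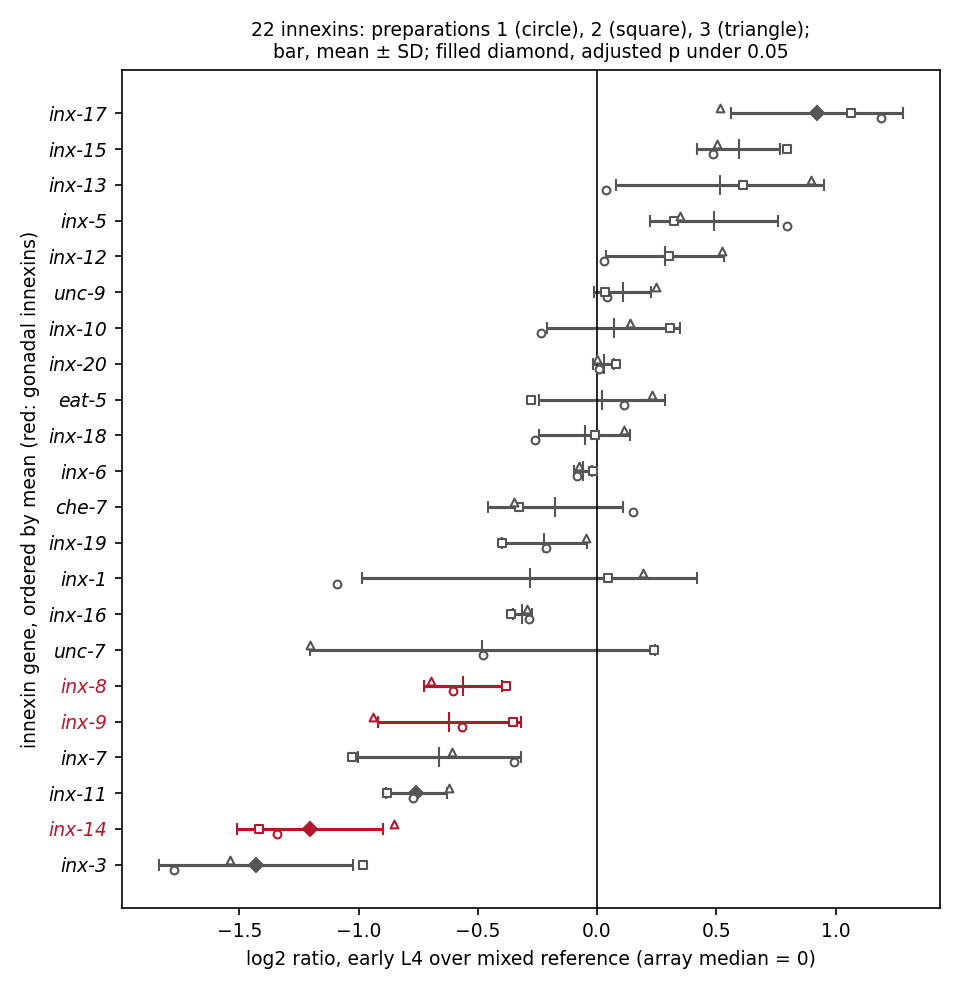
Log2 ratio of early L4 over mixed reference (horizontal axis, array median at 0) of 22 innexins ordered by mean; symbols are preparations 1 (circle), 2 (square) and 3 (triangle), bars the mean ± SD (n = 3), and filled diamonds genes with an adjusted p under 0.05. The gonadal innexins, in red, all lie in the lower part, from inx-14 at -1.20 to inx-8 at -0.56, and inx-3 at -1.43 is the lowest.

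The fourth comparison set the gonadal innexins beside genes of the 2 processes they are known to serve. For germ cell proliferation, 14 genes of the distal niche and the stem cell pathway were measured; the niche ligand gene lag-2 and fbf-1 were not among the genes tested. Of the 14, 1 rose and 2 fell, 21.4% called against 22.7% of all genes, and the median was 0.07. The gene that rose was fbf-2 (F21H12.5), a Pumilio-family RNA-binding protein that maintains germline stem cells, with 1.34, 1.48 and 0.93 in preparations 1, 2 and 3 (mean 1.25 ± 0.28, SD, n = 3; limma adjusted p = 0.00346). Its paralog fbf-1 is nearly identical, so whether the probe also bound fbf-1 RNA was not tested. Those that fell were mex-3 (F53G12.5), a KH-domain RNA-binding protein of germ line and embryo, and lst-1 (T22A3.3), a Notch target of germline stem cells. The ratios of mex-3 were -1.18, -1.16 and -1.55, a 2.46-fold lower level with an SD of 0.22 on the log2 scale (n = 3; limma adjusted p = 0.0025). That of lst-1 was lowest in preparation 1 and had a mean of -0.83 ± 0.43 (SD, n = 3; limma adjusted p = 0.0339). The call for lst-1 was lost without preparation 1 (limma adjusted p = 0.069) or without preparation 2 (0.0909). The Notch receptor gene of germ cells, glp-1, had -0.16, -0.25 and 0.09, a mean of -0.11 ± 0.18 (SD, n = 3; limma adjusted p = 0.768). On each array inx-14 was lower than glp-1.

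For oocyte maturation and the sheath signalling that controls it, 15 genes were measured. The genes acy-4, pde-6, gap-3, sacy-1 and pqn-19 of the same list were not among the genes tested. Of the 15, 1 rose and 5 fell, 40% called and 33.3% lower, against 22.7% called and 10.1% lower over all genes. The median was -0.14. Lower genes were puf-5 (F54C9.8), a Pumilio-family regulator of oocytes, at -2.43 ± 0.76, and oma-2 (ZC513.6), a zinc finger protein needed for oocyte maturation, at -2.34 ± 0.30 (SD, n = 3; limma adjusted p = 0.000435 and 0.000166). The oocyte growth regulator lin-41 (C12C8.3) had -1.13 ± 0.17 and the cell cycle kinase gene cdk-1 (T05G5.3) -1.10 ± 0.27 (SD, n = 3; limma adjusted p = 0.00478 and 0.00631). The fifth, oma-1, outside the naming rule and added after its value was seen, had -0.92 ± 0.28 (SD, n = 3; limma adjusted p = 0.0151), and did not pass without preparation 2 (0.1) or without preparation 3 (0.0906). Of these 5 genes, all but cdk-1 were also on the list of oocyte markers, and among the 11 genes not on it 1 fell, 1 rose and the median was 0.10.

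The gene that rose was kin-2 (R07E4.6), the regulatory subunit of protein kinase A, which acts in the sheath, with 1.04, 0.53 and 0.72 and a mean of 0.76 ± 0.26 (SD, n = 3; limma adjusted p = 0.034). It did not pass when any 1 preparation was left out (limma adjusted p = 0.0537 to 0.119). The G protein gene gsa-1 and the kinase gene kin-1 of the same sheath pathway had means of 0.14 ± 0.33 and 0.14 ± 0.50 (SD, n = 3) and did not pass. On the same list goa-1, lip-1 and vab-1 were below 0 on every array and did not pass either. Their means were -0.32 ± 0.22, -0.28 ± 0.34 and -0.14 ± 0.08 (SD, n = 3). These genes are among 9 of the list that were not called. The sheath cell homeobox gene ceh-18 had 0.46, 0.44 and -0.56, so preparation 3 stood apart from the others in sign.

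Markers of cell types of the gonad are given beside these results, since whole-worm RNA mixes them. The counts stand against 12.6% higher and 10.1% lower over all genes tested. Of 15 oocyte markers tested, 14 fell and 1 did not pass, and the median over the list was -1.90, -1.97 and -2.06 in preparations 1, 2 and 3. On each array inx-14 was less low than this median, by 0.56, 0.55 and 1.21. Of 13 germ cell markers 4 rose and 9 did not pass, 30.8% called against 22.7% of all genes, with medians of 0.64, 0.39 and 0.48, and inx-14 minus these medians gave -1.98, -1.81 and -1.33. Of 10 somatic gonad markers 1 rose and 1 fell, with medians of 0.06, 0.02 and -0.14, and these stood above inx-8 and inx-9 on every array. Single markers did not all do so. The ratios of lim-7 were -0.33, -0.65 and -0.15, below inx-8 and inx-9 in preparation 2. The mean of egl-43, -0.76, was below the means of both. The list was not split by cell type of the somatic gonad. Of 17 sperm markers 9 rose and 8 did not pass, with an overall median of 0.95. Outside the gonad, 7 of 9 body wall muscle markers and 5 of 8 intestine markers rose, and 4 of 12 neuron markers fell, where 12.6% of all genes were higher and 10.1% lower. The part of oocyte number or of other cell types in the ratio of inx-14 was not tested.

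**Figure D3:**
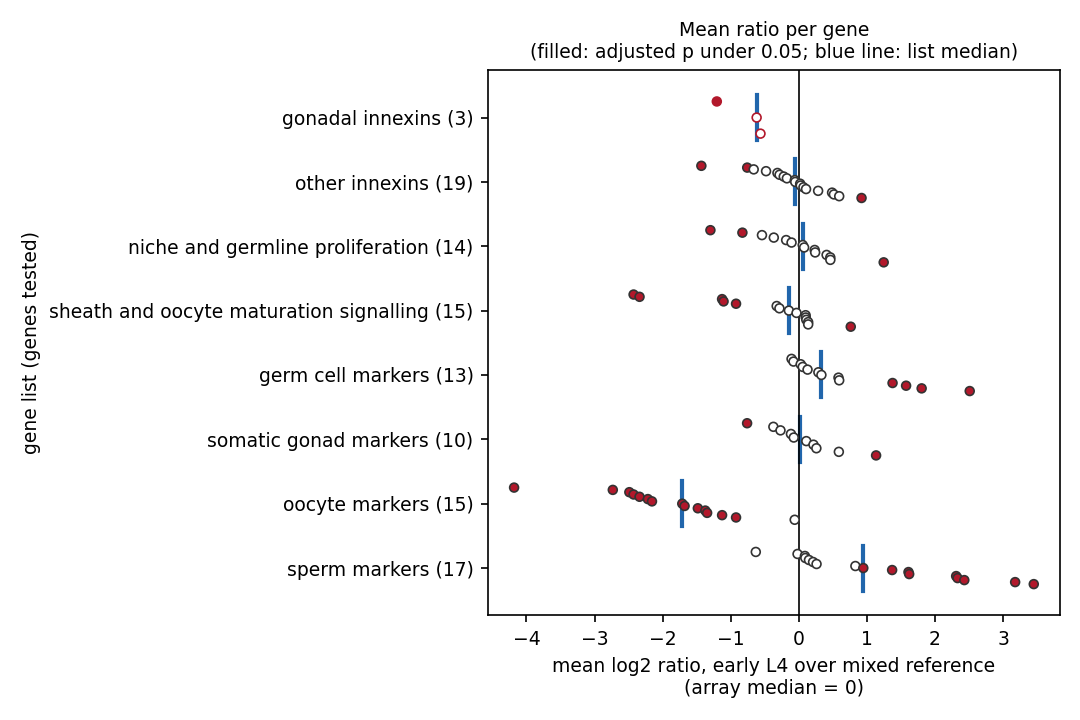
Mean log2 ratio of early L4 over mixed reference (horizontal axis, array median at 0) of each gene of 8 lists, with the number of genes tested in brackets; filled points passed at an adjusted p under 0.05 and blue lines are list medians. The gonadal innexins, with a median of -0.62, lie between the oocyte markers at -1.71 and the sheath and oocyte maturation signalling genes at -0.14. The other innexins are at -0.05.

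As a description, the genes with the most similar values were sought among 124 other genes of the lists used here, by Euclidean distance over the 3 log2 ratios. For inx-14 the nearest were cdk-1, with -1.39, -1.07 and -0.86 in preparations 1, 2 and 3, and unc-25, the neuronal glutamate decarboxylase gene, with -1.64, -1.20 and -0.95. For inx-8 they were unc-64, the syntaxin of nerve terminals, with a mean of -0.42, and egl-43, a zinc finger factor of the anchor cell, with -0.76. For inx-9 they were egl-43 and lag-1, the transcription factor of the Notch pathway, with -0.54. Over all 15128 genes with 3 values, 26 were as close to inx-14 as cdk-1, and 345 were as close to inx-8 as unc-64. For inx-9, 512 genes were as close as egl-43, so with 3 arrays the nearest genes are not particular to these innexins.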

How the data were processed

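Per the labels, 3 two-colour arrays each held a mixed reference in channel 1 and early L4 RNA in channel 2. The authors deposited log2 channel ratios. Undoing the log gave ratios with 3 decimals for 99.96% or more of the values on each array (to within 0.01 of the last decimal), so the ratios had been rounded. For the scanner, dyes, background correction and normalization, no step is given in the sources used here. Column medians as deposited were 0.05, -0.08 and -0.02. Spot brightness was not used here, so precision is limited by the 3 arrays.

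Of 20000 probes, 15655 had 1 gene symbol, 198 several and 4147 none listed; 15569 were updated by gene number to the gene table of WBcel235 and 86 kept their symbol. Each array was centred on its median, probes of a gene were averaged, and genes with values on at least 2 arrays entered a two-sided limma fit (lmFit, eBayes; limma version 3.58.1, R version 4.3.3) of their mean against 0, with 7.59 prior degrees of freedom and p-values adjusted by Benjamini-Hochberg. Confidence intervals are at 95%, from the same fit. The fit was tested on simulated data for early L4 against reference (15159 genes, 200 of them changed), where it recovered 6% of the 2-fold and 96% of the 4-fold changes. In the data 3444 genes were called, so the simulation had far fewer changed genes and needed a smaller unadjusted p for a call. Its percentages therefore do not give the power of the test in these data.

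The members and lists were chosen with earlier results of these data known. The naming rule took all members, every gene past the threshold in 3 lists (at most 4 per direction, by smallest p), and for each member the 2 nearest genes of the lists; genes named by position, and other genes given as values, were added later. Alternatives were uncentred ratios, quantile normalization, genes on all arrays, robust eBayes, each preparation left out, single probes, and unnamed probes kept.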

Additional observations from a re-analysis of the deposited data

How the results depend on the processing

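The ratio of inx-14 stayed below 0 and past the threshold in all 9 alternatives run, with means from -1.38 to -1.10 and limma adjusted p from 0.00109 to 0.0229, the highest without preparation 2. inx-8 (-0.65 to -0.49, limma adjusted p = 0.071 to 0.388) and inx-9 (-0.75 to -0.46, adjusted p = 0.0583 to 0.434) stayed below 0 and did not pass in any of the 9. The count of genes past the threshold, 3444, was 2423 to 3931 with a preparation left out, 16% to 26% of the genes tested. It was 4054 (26.7%) with quantile normalization, the highest of all settings. With unnamed probes and probes of several genes kept it was 3781 (19.5%). The count among other innexins, 3, ran from 1 to 5 with a preparation left out. The cause was not tested. The same 9 alternatives were run on 20 other genes, those of the naming rule, oma-1 and the called neighbours of inx-14. Of these 180 values, 164 kept their side of the threshold, 15 lost a call and 1 gained it (lag-1 without preparation 1), every change with a preparation left out, and none changed sign. No paired analysis was possible because the labels give a single group. With ratios alone, the effect of dim spots on these values was not tested.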
